A study of Mus musculus with 2 samples.

Results

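The genes of proximal T cell receptor signalling were examined in diabetogenic CD4 T cells from mice that received a tolerising nanoparticle and from untreated mice. The set holds 37 genes, taken by symbol from the 54532 gene rows of the expression data, and each symbol had a single row. It covers the chains, coreceptors, kinases, adaptors and phosphatases that act at or just below the receptor. All 37 were among the 13902 genes counted as measured, meaning that their counts in the 2 libraries summed to at least 20.

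The cells were BDC-2.5 T cells, which carry a transgenic T cell receptor specific for pancreatic beta cells and come from the non-obese diabetic (NOD) background. They were activated and then transferred into NOD.scid mice, which have no T or B cells of their own. The 2.5HIP-PLG group was injected intravenously 1 day later with 1.75 mg of 2.5HIP-PLG, a polymer nanoparticle carrying the hybrid insulin peptide that this receptor recognises, and the Untreated group was not. On day 6 after transfer, CD4-positive cells without GFP, which reports Foxp3, were sorted from spleens and lymph nodes of 4 pooled mice per group and sequenced as 1 library. The pooling leaves no measure of the spread between mice, and the single transgenic receptor limits what the cells can stand for. No difference below could be checked against replicates, so there are no p-values.

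When peptide on MHC class II engages the receptor, the kinase Lck, held near it by CD4, phosphorylates the CD3 and zeta chains, and Zap70 binds them and phosphorylates the adaptors LAT and SLP-76. These assemble phospholipase C gamma 1, Vav1 and the Grb2 family, which lead to calcium, Ras and NF-kB signals. A second layer restrains the cascade. The kinase Csk and several phosphatases turn Lck and Zap70 down, and inhibitory adaptors and receptors recruit them to the membrane. Weakened signalling at this level is a textbook feature of T cell anergy, the unresponsive state that follows antigen without costimulation.

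Pairs of values below give the 2.5HIP-PLG library first and the Untreated library second. The libraries held 22580648 and 26036623 counts, of which the 37 genes took 1.60% and 1.44%. Levels are given as counts and as CPM, counts scaled to a library total of 1000000. Ratios divide the first library by the second and carry, in parentheses, an exact 95% interval for counting error alone. The terms called higher and called lower require a ratio of 1.5 in that direction and an interval without 1. The libraries also differed outside the pathway. The ribosomal RNA gene CT010467.1 took 0.202% and 1.06% of counts. Y-linked genes summed to 6.55 and 29.2 CPM. The transgenic beta chain uses Trbv2, and all other Trbv segments together took 1.37% and 4.14% of Trbv counts. Defining genes of CD4 T cells (Cd4, Cd3e, Trac, Trbc1 and Trbc2) were abundant in both libraries.

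Most members were not called in either direction, and the calls fell on adaptors, a phosphatase and a kinase. Of the set, 3 of 37 members were higher in the 2.5HIP-PLG library (Ubash3b, Fyn and Lax1), 4 were lower (Trat1, Pag1, Sit1 and Grap2), and 30 were neither. Of all measured genes, 5.15% were called higher and 9.7% lower by the same rule, so the shares among the members, 8.11% and 10.8%, were near that background. The members were abundant, with counts between 173 and 54613 in a library, and calls were rarer among abundant genes. Of 5838 genes with a count sum of at least 1500, 2.59% were called higher and 2.55% lower, smaller shares than among the members, whose calls rest on 7 genes. The ratio lay between 0.8 and 1.25 for 21 of the 37 members (56.8%), against 64.5% of all measured genes and 83.0% of the abundant ones. The interval lay wholly above 1 for 21 members (56.8%), wholly below 1 for 10 (27.0%), and held 1 for 6 (16.2%). The same shares were 24.3%, 26.3% and 49.4% of all measured genes and 36.2%, 30.1% and 33.7% of the abundant ones. The median log2 ratio was 0.10 over the members, -0.01 over all measured genes and 0.02 over the abundant ones.

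**Figure D1:**
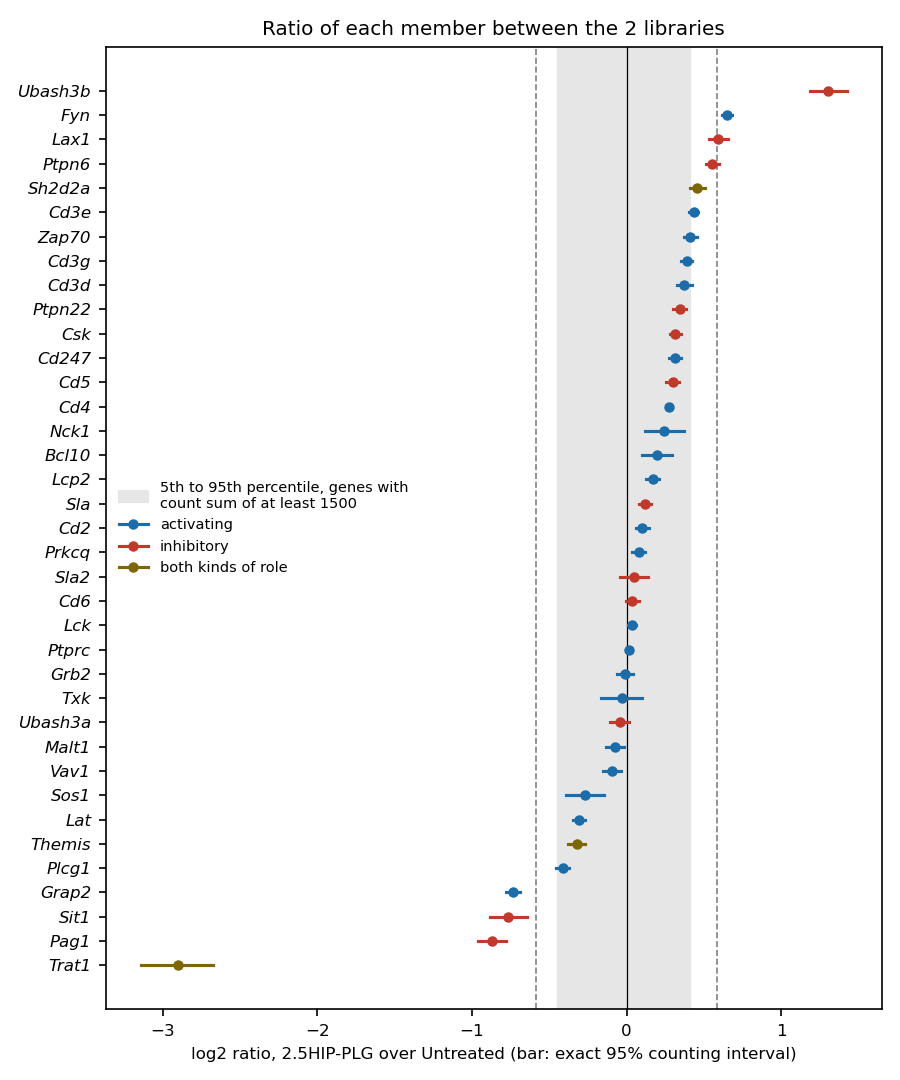
Each point is the log2 ratio of 1 member, 2.5HIP-PLG over Untreated, with its exact 95% counting interval as a bar, ordered by ratio and coloured by class. The grey band spans the 5th to 95th percentile of genes with a count sum of at least 1500 (-0.44 to 0.41), and the dashed lines mark a ratio of 1.5 in either direction. Trat1, at -2.90, lies far below the other members, and Ubash3b, at 1.30, lies above them.

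The receptor chains were all slightly more abundant in the 2.5HIP-PLG library, and none reached the size for a call. CD3 delta, epsilon and gamma pair to form the signalling scaffold around the antigen-binding chains, and the zeta chain, encoded by Cd247, carries most of the phosphorylation motifs. Cd3e had 23550 counts with 2.5HIP-PLG against 20110 in Untreated cells, a ratio of 1.35 (1.33 to 1.38). Cd3g had 14876 and 13109 counts (1.31, 1.28 to 1.34), and Cd3d had 7292 and 6495 (1.29, 1.25 to 1.34). These 3 genes lie side by side on chromosome 9 (44969572 to 45009627, GRCm38), and their ratios fell within a narrow range. Cd247 had 11408 and 10581 counts (1.24, 1.21 to 1.28). Its value is less certain, because 60.3% of its exon bases are shared with genes such as Pou2f1 on the opposite strand, and whether counting used strand is not stated. The constant segments of the antigen-binding chains had ratios in the same range, 1.30 for Trac, 1.33 for Trbc1 and 1.21 for Trbc2. Bulk RNA cannot tell more receptor RNA per cell from a larger share of cells that express it.

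The coreceptor and the adhesion receptor differed less. Cd4, which brings Lck to the receptor, had 41743 and 39739 counts in that order (1.21, 1.19 to 1.23). Per kilobase of exon it was the most abundant member in the 2.5HIP-PLG library at 458 CPM per kilobase, against 379 in the Untreated library. Cd2, a receptor for CD48 that strengthens contact with the presenting cell, had 9307 and 10002 counts (1.07, 1.04 to 1.10).

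**Figure D2:**
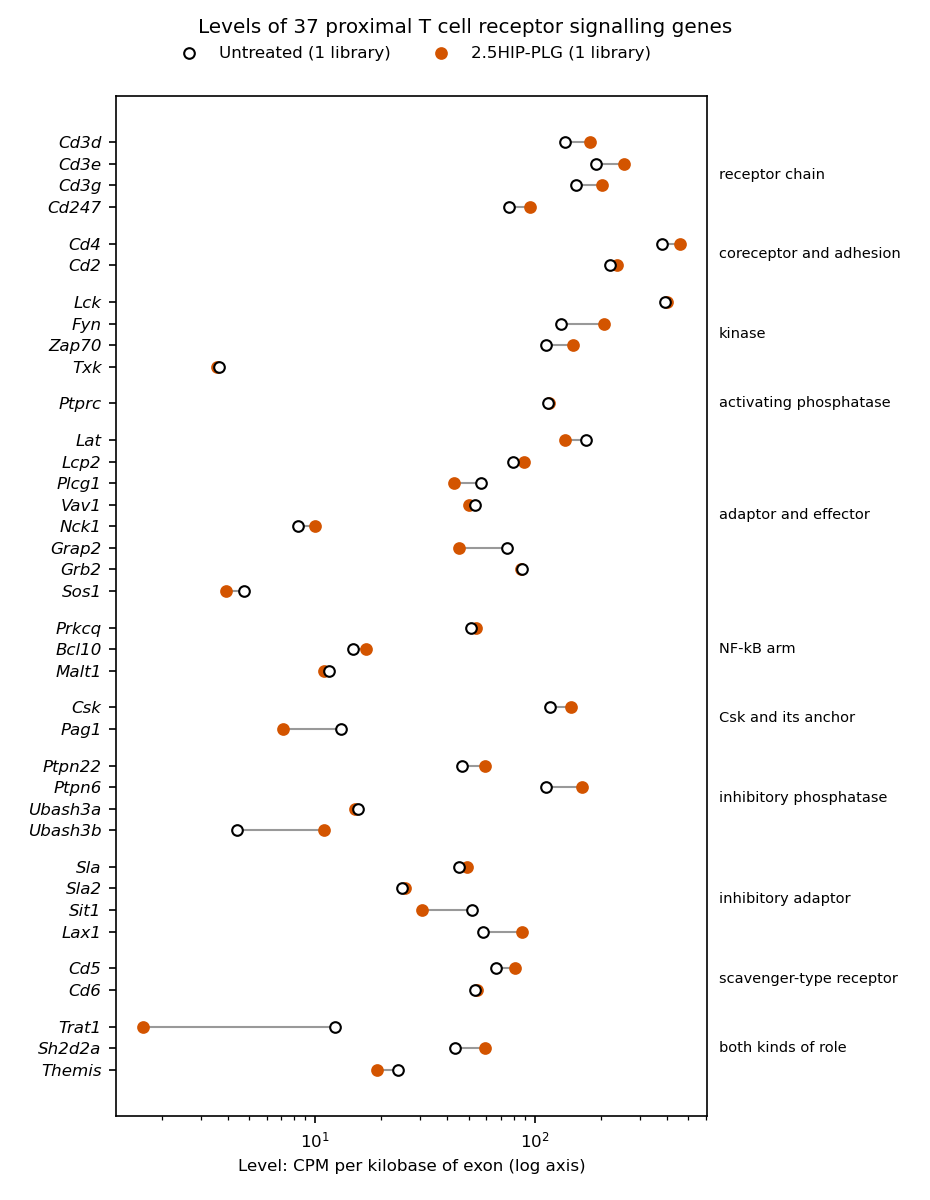
Each row is 1 member, grouped by role, and the horizontal log axis is its level in CPM per kilobase of exon. Open circles are the Untreated library and filled circles the 2.5HIP-PLG library, 1 library each. Cd4 and Lck sit farthest to the right, while Trat1 is at 12.3 in the Untreated library and at 1.64, the lowest member, in the 2.5HIP-PLG library.

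Among the kinases the difference was in Fyn. Lck, the Src family kinase that starts the cascade, had 26506 counts with 2.5HIP-PLG against 29851 in Untreated cells, a ratio of 1.02 (1.01 to 1.04). Fyn, its relative with both activating and restraining roles, had 20318 and 14946 counts and was called higher (1.57, 1.53 to 1.60; chromosome 10, 39368855 to 39565381). Zap70, which docks on phosphorylated receptor chains, had 10080 and 8734 counts (1.33, 1.29 to 1.37), larger than the counting error and short of a call. Txk, a Tec family kinase, was scarce with 880 and 1037 counts, and its interval held 1 (0.978, 0.893 to 1.07). Ptprc, which encodes CD45, the phosphatase that keeps Lck primed, had 47819 and 54613 counts and the same scaled level in both libraries within counting error (1.01, 0.997 to 1.02).

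Of 8 adaptors and effectors below Zap70, 1 was called lower and 0 higher. The interval lay below 1 for 5 of them (62.5%, against 30.1% of abundant genes) and above 1 for 2 (25%, against 36.2%). Their median log2 ratio was -0.18, beside 0.38 for the 4 receptor chains, a difference that was not tested. Grap2 encodes Gads, the adaptor that links LAT to SLP-76. It had 6340 and 12168 counts in that order and was called lower (0.601, 0.583 to 0.619; chromosome 15, 80572594 to 80652854). Its 2 partners lay on either side of 1. Lat, the membrane adaptor, had 8587 and 12271 counts (0.807, 0.785 to 0.830), and Lcp2, which encodes SLP-76, had 8970 and 9206 (1.12, 1.09 to 1.16).

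Plcg1, the phospholipase that produces the calcium and diacylglycerol signals, had 7588 and 11643 counts (0.751, 0.730 to 0.774). It shares 7.98% of its exon bases with genes on the opposite strand, among them Zhx3, at 461 and 711 counts. Sos1, a Ras activator, had 936 and 1301 counts (0.830, 0.762 to 0.903). Its adaptor Grb2 had 5722 and 6645 counts, with an interval that held 1 (0.993, 0.958 to 1.03). Vav1, a guanine nucleotide exchange factor that links the receptor to the actin cytoskeleton, had 4164 and 5133 counts (0.935, 0.898 to 0.975), and Nck1, an adaptor to the actin machinery, had 1075 and 1046 (1.19, 1.09 to 1.29). Apart from Grap2, then, these values lay within the size that the rule leaves uncalled.

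The arm that leads to NF-kB had 0 of 3 members called. Prkcq, the kinase PKC theta, had 8631 counts with 2.5HIP-PLG against 9426 in Untreated cells (1.06, 1.03 to 1.09). Its downstream scaffold genes Bcl10, with 1753 and 1765 counts (1.15, 1.07 to 1.22), and Malt1, with 4440 and 5397 (0.949, 0.911 to 0.987), lay on either side of 1. Malt1 encodes the protease of the complex that Bcl10 joins.

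The inhibitory kinase and its membrane anchor parted. Csk, which phosphorylates the inhibitory tyrosine of Lck, had 12277 and 11378 counts in that order (1.24, 1.21 to 1.28). Pag1 encodes PAG, a transmembrane adaptor that holds Csk near Lck. It had 1545 and 3257 counts and was called lower, by 1.83-fold (1.72 to 1.94; chromosome 3, 9687479 to 9833679).

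Among 4 inhibitory phosphatase genes, Ubash3b stood apart. Ubash3b encodes Sts-1, which dephosphorylates Zap70 and related kinases. It had 1803 counts with 2.5HIP-PLG against 842 in Untreated cells and had the largest ratio of the 37 members (2.47, 2.27 to 2.68; chromosome 9, 41011098 to 41161697). Of the 5838 abundant genes, 33 had a larger log2 ratio. Its relative Ubash3a, encoding Sts-2, had 3834 and 4563 counts, with an interval that held 1 (0.969, 0.928 to 1.01). Ptpn6, which encodes SHP-1, had 10411 and 8182 counts, a ratio just under the size for a call (1.47, 1.43 to 1.51). Ptpn22, a phosphatase that partners with Csk, had 9072 and 8246 (1.27, 1.23 to 1.31). The interval lay above 1 for 3 of these 4 genes, all but Ubash3a (75%, against 36.2% of abundant genes).

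The inhibitory adaptors were split, with 1 called higher and 1 lower. Lax1 encodes LAX, a LAT-like membrane adaptor that restrains signalling. It had 4574 and 3495 counts in that order and just reached the size for a call (1.51, 1.44 to 1.58). With upper quartile scaling its log2 ratio was 0.579 and it was no longer called. Sit1, another transmembrane adaptor that recruits SHP phosphatases and Csk, had 871 and 1708 counts and was called lower, by 1.70-fold (1.57 to 1.85; chromosome 4, 43482081 to 43483734). The Src-like adaptors Sla and Sla2, which promote turnover of the receptor complex, differed little. Sla had 10139 and 10778 counts (1.08, 1.06 to 1.11) and Sla2 had 1792 and 2000, with an interval that held 1 (1.03, 0.969 to 1.10). Sla2 shares 23.6% of its exon bases with Rab5if on the opposite strand.

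Cd5 and Cd6, neighbouring genes on chromosome 19 for scavenger-type receptors that dampen the signal, were not called. Cd5, whose surface level is known to follow the strength of receptor signalling, had 9061 counts with 2.5HIP-PLG against 8501 in Untreated cells (1.23, 1.19 to 1.27). Cd6 had 9833 and 11047 counts, with an interval that held 1 (1.03, 0.999 to 1.05).

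Trat1 differed most. It encodes TRIM, a transmembrane adaptor that associates with the receptor and its zeta chain and for which both supporting and dispensable roles have been described. It had 173 counts, 7.66 CPM, with 2.5HIP-PLG against 1495 counts, 57.4 CPM, in Untreated cells, 7.49-fold lower (6.40 to 8.82; chromosome 16, 48730774 to 48772021). Of the 5838 abundant genes, 1 had a lower log2 ratio, the small nuclear RNA gene Rn7sk at -3.29. No exon base of Trat1 is shared with another annotated gene, and its counts were whole in both libraries. The class assignment set Trat1 and 2 other members apart as having both kinds of role, in neither the activating nor the inhibitory class. For Trat1 this was a choice, as the roles named above include no inhibitory one. The other 2, Themis and Sh2d2a, were not called. Themis, an adaptor that acts with SHP-1, had 5033 and 7264 counts (0.799, 0.771 to 0.828), and Sh2d2a, which encodes the Lck-binding adaptor TSAd, had 7966 and 6685 (1.37, 1.33 to 1.42).

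Trat1, Pag1, Sit1, Lat and Lax1 all encode transmembrane adaptors with tyrosine motifs in their tails, a grouping made after the values were seen. The first 4 had intervals below 1 (30.1% of abundant genes did) and Lax1 had one above it (36.2%). Because the group was formed from these values, the count is no result about such adaptors.

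**Figure D3:**
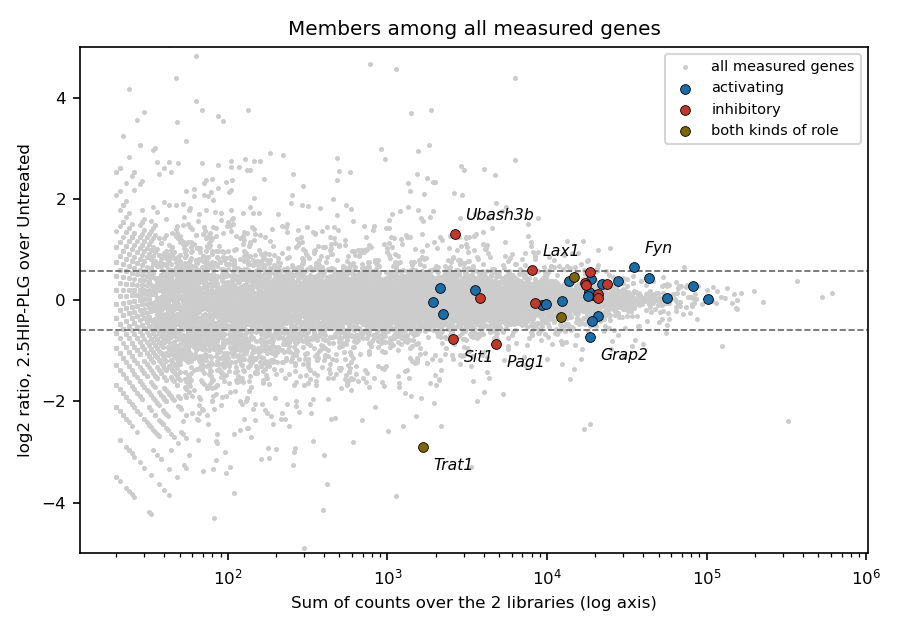
Each grey point is 1 of 13902 measured genes, with the sum of its counts in the 2 libraries on the horizontal log axis and its log2 ratio on the vertical axis. Members are coloured by class, dashed lines mark a ratio of 1.5 in either direction, and 29 genes beyond a log2 ratio of 5 in size lie outside the axis. The 7 called members are named, and Trat1 lies below nearly all genes of its abundance.

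The sequences upstream of the members at both ends of the range, Trat1 and Ubash3b, are shown because these genes differed most in each direction. Each is the 250 bases before the RefSeq start of the gene (GRCm38.p6, minus strand, read 5′ to 3′), chr16:48772063-48772312 for Trat1 and chr9:41158063-41158312 for Ubash3b. Capitals mark matches to 7 short motifs searched on both strands. The letters searched were CCGGAA for ETS factors, TGTGGT for RUNX, GGAAAA for NFAT, TGACTCA for AP-1, CTTTGA for TCF/LEF, CAGCTG for E-box proteins and AGATAA for members of the GATA family.
Trat1: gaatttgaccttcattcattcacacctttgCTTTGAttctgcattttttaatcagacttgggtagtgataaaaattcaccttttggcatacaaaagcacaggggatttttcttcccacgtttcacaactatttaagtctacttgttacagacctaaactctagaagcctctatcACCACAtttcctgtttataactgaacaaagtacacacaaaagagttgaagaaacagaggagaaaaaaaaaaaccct
Ubash3b: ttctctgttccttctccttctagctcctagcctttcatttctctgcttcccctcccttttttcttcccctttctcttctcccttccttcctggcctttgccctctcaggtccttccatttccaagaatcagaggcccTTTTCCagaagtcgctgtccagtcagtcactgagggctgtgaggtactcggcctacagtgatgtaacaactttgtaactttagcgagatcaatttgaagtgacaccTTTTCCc
The Trat1 window is poor in G and C, at 35.2%, and 5.41% of all RefSeq windows have as little or less. It holds 1 match to the TCF/LEF letters, 220 bases before the start, and 1 to the RUNX letters in reverse, 76 bases before it. The Ubash3b window, at 48.4% G and C, holds 2 matches to the NFAT letters, both in reverse, 113 and 7 bases before the start. The RefSeq start of Ubash3b lies 3635 bases inside the GENCODE gene.

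Of the 37 members, 30 had a RefSeq window. The TCF/LEF letters were in 8 of them (26.7%), against 13.8% of all 32851 windows. Called members among the 8 were Fyn, Sit1 and Trat1, and uncalled ones Cd3d, Lcp2, Ptprc, Txk and Zap70. The NFAT letters were in 7 (23.3% against 20.4%), the called Grap2 and Ubash3b and the uncalled Csk, Lcp2, Ptprc, Sos1 and Zap70. Csk and Ptprc held 2 matches each, as Ubash3b did. The RUNX letters were in 5 (16.7% against 14.0%), the called Lax1 and Trat1 and the uncalled Lck, Sla2 and Sos1. The RefSeq start used for Grap2 lies 50889 bases inside its GENCODE gene, and that for Fyn 944 bases. The ETS, E-box and GATA letters were each in 3 (10% against 12.0%, 13.0% and 9.99%). The AP-1 letters were in 0, against 4.46% of all windows. These are letter matches in short windows and describe no binding.

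The activating and inhibitory members were set against each other. Trat1, Themis and Sh2d2a were in neither class and are left out. Fyn, which also has both kinds of role, was kept as activating. Of 22 activating members, 1 was called higher and 1 lower (4.55% each, against 2.59% and 2.55% of abundant genes), and 20 neither. Their log2 ratios had a median of 0.09 and ranged from -0.74 (Grap2) to 0.65 (Fyn). Of 12 inhibitory members, 2 were called higher and 2 lower (16.7% each, against the same shares of abundant genes), and 8 neither. Theirs had a median of 0.21 and ranged from -0.87 (Pag1) to 1.30 (Ubash3b). The medians differed by 0.12, and the range of the inhibitory members enclosed that of the activating ones. Trat1, at -2.90, lay below both ranges, so the enclosure depends on its being left out of the activating class. With Ptprc, Fyn and Cd6 left out of both classes the medians differed by 0.21. Summed over members, the activating class had 12045 and 10955 CPM, and the inhibitory class 3331 and 2842. Both classes held calls in both directions, and with 1 library per group the difference between the medians was not tested.

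Balance within pairs of related or partner genes needs no scaling between libraries, and the shares are of counts, not corrected for length. The pairs were chosen after the values were seen. Several join a called gene to an uncalled one, and Lax1 and Sit1 were called in opposite directions. A shifted share in such a pair restates the ratios above. Ubash3b made up 32.0% (30.8 to 33.2, exact binomial interval) and 15.6% (14.6 to 16.6) of the counts of both Sts genes. Per kilobase of exon, Ubash3a remained the more abundant of the pair, by 1.39-fold and 3.53-fold in that order. Fyn made up 43.4% (42.9 to 43.8) and 33.4% (32.9 to 33.8) of the counts of Fyn and Lck.

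Grap2 made up 52.6% (51.7 to 53.5) and 64.7% (64.0 to 65.4) of the counts of Grap2 and Grb2. For Pag1 and Csk, the share of Pag1 was 11.2% (10.7 to 11.7) and 22.3% (21.6 to 22.9). Nck1 made up 42.8% (40.8 to 44.8) and 32.7% (31.1 to 34.3) of the counts of Nck1 and Nck2, although neither gene was called. The share of Ptpn6 among counts of Ptpn6 and Ptpn11 was 54.1% (53.4 to 54.8) and 64.5% (63.6 to 65.3). Lax1 took 84.0% (83.0 to 85.0) and 67.2% (65.9 to 68.4) of the counts of Lax1 and Sit1. Cd5 took 48.0% (47.2 to 48.7) and 43.5% (42.8 to 44.2) of the counts of Cd5 and Cd6, and Sos1 took 39.0% and 43.8% of those of Sos1 and Sos2, with intervals that did not overlap. For the Src-like adaptors the intervals overlapped, with Sla2 at 15.0% (14.4 to 15.7) and 15.7% (15.0 to 16.3) of their counts.

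**Figure D4:**
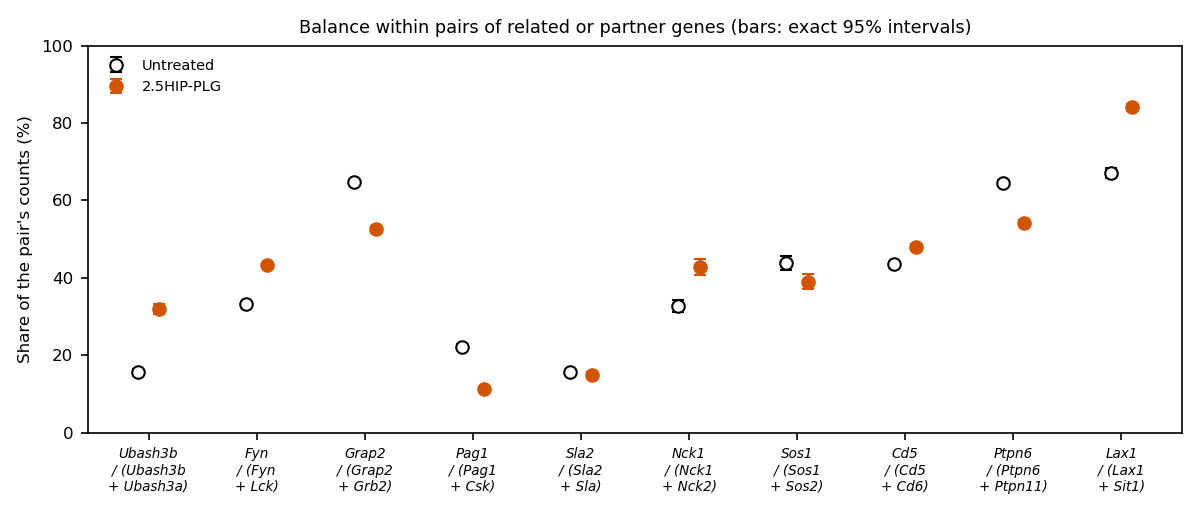
For 10 pairs of genes, chosen after the values were seen, each point is the first gene's share of the pair's counts in percent. Bars are exact 95% intervals. Open circles are the Untreated library and filled circles the 2.5HIP-PLG library. The shares of Ubash3b, Fyn, Nck1, Cd5 and Lax1 are larger in the 2.5HIP-PLG library, those of Grap2, Pag1, Sos1 and Ptpn6 are smaller, and the intervals for Sla2 overlap.

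Other genes of the pathway, 48 outside the set, were called about as often as abundant genes in general. Of 47 measured, 1 was called higher (2.13%, against 2.59% of abundant genes), 0 lower (against 2.55%) and 46 neither. Their median log2 ratio was 0.03. The called gene was Ptpn11, encoding the phosphatase SHP-2, with 8830 and 4513 counts in that order (2.26, 2.18 to 2.34). Among these 47 genes the interval lay above 1 for 20 (42.6%), below 1 for 13 (27.7%) and held 1 for 14 (29.8%). Cd8a, below the count minimum, had 0 and 9 counts.

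Lists of markers of other cell types, Foxp3 aside, summed to between 3.46 and 43.5 CPM in a library, in the range of the scarcest members, and several lists differed between the libraries. The 4 mast cell and basophil genes summed to 16.3 and 3.46 CPM, with all 3 measured genes higher and Prss34 the most abundant. The 5 neutrophil genes summed to 13.4 and 3.61 CPM, with Mpo, the most abundant, and Elane higher among 3 measured genes. The 5 NK cell genes summed to 19.1 and 25.4 CPM, with 1 higher and 3 lower, and Klre1 was the most abundant. The 6 macrophage and monocyte genes summed to 22.1 and 20.4 CPM, with Lyz2 and Csf1r higher among 5 measured genes. Itgam, the most abundant, had 219 and 325 counts and was not called, with an interval below 1 (0.777, 0.652 to 0.925). The others measured had intervals that held 1. The 6 dendritic cell genes summed to 18.5 and 30.7 CPM, with Itgax lower among 5 measured genes and H2-Aa, not called, the most abundant.

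B cell genes summed to 21.9 and 16.0 CPM over 7 genes, of which 2 were measured. Cd22, the most abundant, was higher (389 and 228 counts; 1.97, 1.67 to 2.33), while Ms4a1 had 0 counts in both libraries. The 2 CD8 genes summed to 13.5 and 10.8 CPM, nearly all from Cd8b1, and the 4 erythroid genes to 42.1 and 43.5 CPM, led by Hba-a1. Foxp3 itself, despite the sort on its reporter, had 51.2 and 14.9 CPM and was called higher (3.43, 3.05 to 3.86). Its expected counts were not whole. For comparison, Ubash3b was 47.5 CPM higher in the 2.5HIP-PLG library than in the Untreated library, Lax1 68.3 CPM and Fyn 326 CPM. Trat1 changed by -49.8 CPM, Sit1 by -27.0 CPM, Pag1 by -56.7 CPM and Grap2 by -187 CPM. The part of other cells, of regulatory cells or of T cells with other receptors in these differences was not tested. Among 7 CD4 T cell genes, Trbc2 was the most abundant, 0 were higher and 1, Cd40lg, was lower (1218 and 2174 counts; 0.646, 0.602 to 0.693).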

How the data were processed

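RNA was sequenced from 2 libraries, 1 per group, each made from cells pooled over 4 mice. The submitters' processing notes name STAR, RSEM 1.3.1 and the genome build GRCm38. The authors deposited expected counts, in which a read that fits several genes is divided among them. Annotation, filters, strand setting and the STAR version are, in the sources used here, not stated. Groups follow the treatment label, as the protocol text is the same for both samples.

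Counts were rounded and scaled by library total. Not whole were 11.1% and 11.8% of rows, and 7 of the 37 members (Cd3e, Cd247, Plcg1, Grb2, Ptpn6, Sla2 and Themis). Ratios carry exact (Clopper-Pearson, conditional binomial) 95% intervals for counting error only, computed in Python 3.11.15 with scipy 1.17.1 and tested on simulated counts. They treat reads as independent. No molecular identifiers are described, so copies of the same molecule may be counted repeatedly, and the intervals may be too narrow. Log2 ratios have 0.5 counts added. One count was worth 0.0443 CPM (2.5HIP-PLG) and 0.0384 CPM (Untreated). Exon lengths (the union of all exons) and positions came from GENCODE M21 (GRCm38), which holds 54495 row IDs. These lengths count exons that the cells may not use, so levels per kilobase are approximate.

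All members are named, as are the called genes of the pathway list and the most abundant gene of each marker list. CT010467.1, the Y-linked and Trbv genes, Rn7sk, Ms4a1, Lyz2, Csf1r, Itgax, Elane, Cd40lg, Trac, Trbc1 and the gene pairs were chosen after their values were seen. The members, classes and lists were chosen with earlier results of these data known. Alternatives were edgeR 4.0.16 TMM, DESeq2 1.42.0 median-of-ratios, upper quartile and reduced totals as scaling, other count minimums, unrounded counts, a ratio of 2, a 99% interval and another class assignment. Each symbol had 1 row, so summing rows gives the same values.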

Additional observations from a re-analysis of the deposited data

How the results depend on the processing

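No paired analysis was possible because each group is 1 library, and no library could be left out. The counts of called members were the same under TMM, median-of-ratios, total without the 20 most abundant genes, unrounded counts, count sums of 100 and 1500, no minimum and a 99% interval. For the count minimums this was fixed in advance, as the lowest count sum of a member was 1668. The called members had whole counts, so rounding did not alter them either. Upper quartile scaling and a total without CT010467.1 (the latter, like the count sum of 1500, chosen after seeing the data) ended the call of Lax1, at log2 ratios of 0.579 and 0.581. With a ratio of 2 required, 1 member was higher (Ubash3b) and 1 lower (Trat1), and Fyn, Lax1, Grap2, Pag1 and Sit1 lost their calls by construction. Leaving Ptprc, Fyn and Cd6 out of both classes gave an inhibitory median log2 ratio of 0.30 and a difference between the medians of 0.21. All other settings left that difference at 0.12, which was fixed in advance for most of them. A change of scaling shifts every log2 ratio alike. The ratio required, the interval and the count minimums do not enter the medians of these members. With no count minimum, 1 further pathway gene was lower, Cd8a at 0 and 9 counts. No direction of a called member reversed, and with shifts of this size none could. Lax1, whose log2 ratio was the smallest in size among the called members, stayed between 0.579 and 0.607. Depth limits the scarcest members most, as the 173 counts of Trat1 leave its fold between 6.40 and 8.82.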
